A study of Mus musculus with 13 samples.

Results

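The collagen gene family was taken as the protein-coding genes of the kidney table whose symbol has the form Col, a number, a and a number, which gave 44 of 28183 listed genes (18465 of them protein-coding). The same symbols gave 4 of the 2016 genes listed in a table from a kidney cell line. Collagens are secreted matrix proteins whose chains wind around each other into a long helix. Fibrillar collagens bundle into the tensile fibres of connective tissue, fibril-associated collagens coat those fibres, type IV and type VIII collagens form sheet-like networks such as the basement membranes under tubule, glomerular and vascular cells, and type VI collagen forms beaded filaments. In kidneys, scarring is known for deposition of fibrillar collagen between tubules, largely by fibroblasts and myofibroblasts, and inherited defects of the type IV chains made by podocytes cause Alport syndrome.

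RNA-seq was run on kidneys of C57BL/6 mice from a pair of models of autosomal dominant polycystic kidney disease, with 2 libraries in each of 4 groups. At postnatal day 10, Pkd1 knockouts (KSP/Cre+ with floxed Pkd1 alleles, Pkd1f/f) were set against controls with the same floxed alleles and no Cre (KSP/Cre-;Pkd1f/f). At postnatal day 20, Pkd2 knockouts (Pkhd1/Cre+;Pkd2f/f) were set against Pkhd1/Cre-;Pkd2f/f controls. Cells of the line mIMCD-3, from the inner medullary collecting duct of a mouse, were transfected with 10 nM of a gapmer, an antisense oligonucleotide that directs cleavage of its target, aimed at Hoxb3os, a long noncoding RNA (3 libraries), or with a negative control gapmer (2 libraries), and harvested at 48 h. All kidney groups carry floxed alleles, and the KSP promoter (of Cdh16) and the Pkhd1 promoter act in tubule epithelium, so the Cre was not aimed at interstitial cells. The titles of the Pkd2 knockout libraries carry the word WT although their genotype lists the Cre, and the genotype was followed. The labels do not say whether the libraries of a group come from separate animals, so p-values measure only the spread between these libraries.

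Depth ran from 30658367 to 94429117 reads per kidney library, and mitochondrial genes took 22% to 41.4% of the deposited values, with 27.4% and 38.7% in the Pkd1 controls against 22% and 22.5% in the knockouts, and 41.4% and 41.3% against 34.7% and 30.1% in the Pkd2 model. That share was thus lower in the knockouts of both models, where the summed collagen level was higher, and its part in the collagen results was not tested. The deposited values are CPM, each library further divided by its own scaling factor. All 5 segment markers looked at, Slc34a1, Lrp2, Umod, Slc12a3 and Aqp2, were read in all 8 kidney libraries. Of the targeted genes, Pkd1 overlapped between the Pkd1 groups, at 31.1 and 22.7 in the controls against 24.1 and 26.0 in the knockouts, and Pkd2 was lower without overlap in the Pkd2 knockouts, at 69.0 and 61.2 against 50.7 and 53.3. These are whole-gene values, which a deletion of floxed exons need not lower, so they are a weak check of the labels. Summed Y-linked genes stood at 155 and 10.4 against 149 and 183 in the Pkd1 model (controls first) and at 0.104 and 0.0221 against 169 and 0.0462 in the Pkd2 model, so the sexes of the animals were not balanced over the groups. Adrenal gland markers summed to 148 in Pkd2 control replicate 2 against at most 4 in each other library. Collagens made up 0.176% to 0.826% of the values of a library.

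Per kilobase of annotated exon, the collagens of the control kidneys were led by Col4a1, Col4a2 and the multiplexin Col18a1, with the fibrillar Col3a1 next. The length is the union of all annotated exons of a gene, so ranks and ratios between genes depend on that annotation. In the Pkd1 controls the order by mean level per kb was Col4a1, Col4a2, Col18a1, Col3a1 and Col15a1, and in the Pkd2 controls it was Col4a1, Col4a2, Col18a1, Col3a1 and Col4a5. Col12a1, whose chain binds the surface of collagen fibrils, ranked 17 and 19 in the controls. It ranked 1 among the 44 collagens in the Pkd1 knockouts, where it stood at 90.7 and 93.7 per kb beside 71.1 and 98.5 for Col4a1, so those first 2 ranks overlapped between libraries. In the Pkd2 knockouts it ranked 5, at 39.5 and 59.4 per kb. By the mean over all 8 libraries the lowest was Col22a1, at 0.0187 per kb or less in each, while Col10a1 ranked 44 in both control groups and Col2a1 in the Pkd1 knockouts.

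The summed collagen level per kb was 504 and 367 in the Pkd1 controls against 650 and 648 in the knockouts. In the Pkd2 model the sum was 280 and 327 in the controls and 476 and 544 in the knockouts, so the knockout libraries lay above their controls in both models. Fibril-associated collagens gave 8.45% and 9.96% of this sum in the Pkd1 controls against 20.8% and 19.6% in the knockouts, and 9.16% and 9.21% against 16.5% and 17.6% in the Pkd2 model. Col12a1 by itself went from 1.16% and 1.27% to 14.0% and 14.4% in the Pkd1 model and from 0.642% and 0.601% to 8.31% and 10.9% in the Pkd2 model. Basement membrane and network collagens held 38.1% and 40.5% of the sum in the Pkd1 controls against 23.5% and 31.4% in the knockouts, and 44% and 41.9% in the Pkd2 controls against 33.9% and 31.8%. Shares of a sum move together, and the summed deposited value of the network collagens overlapped between the Pkd1 groups and was higher in the Pkd2 knockouts, at 1421 and 1100 in the Pkd1 controls against 1136 and 1519 in the knockouts, and 944 and 1046 in the Pkd2 controls against 1202 and 1287.

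**Figure D1:**
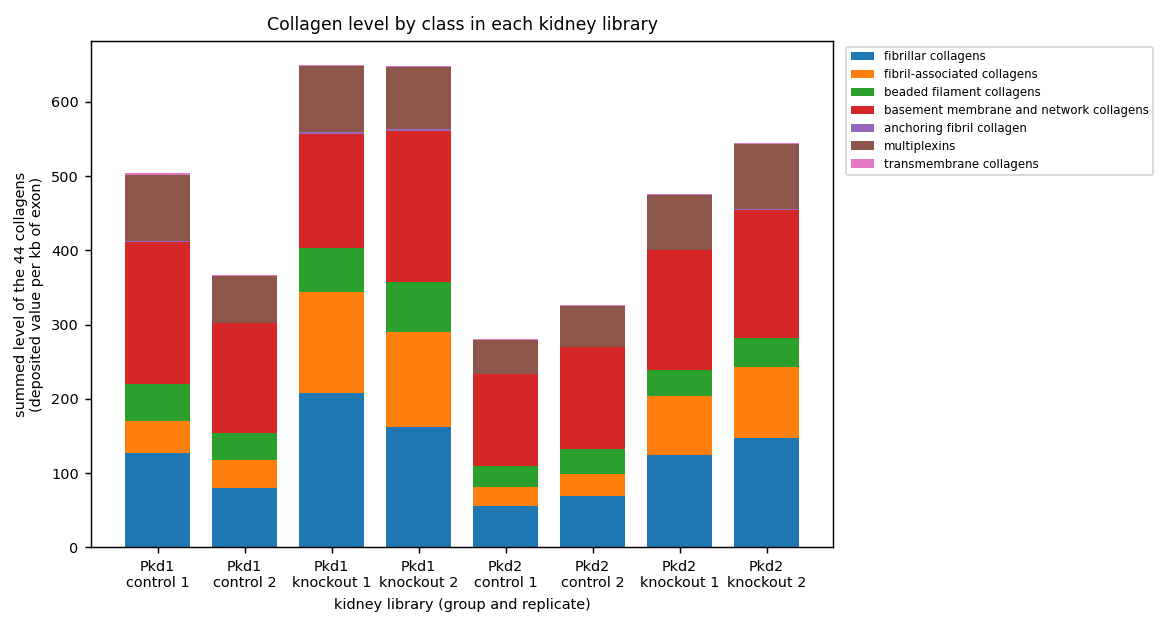
Stacked bars give the summed level of the 44 collagens (deposited value per kb of annotated exon, y axis) in each of the 8 kidney libraries (x axis), coloured by collagen class. The knockout libraries are taller than their controls, from 476 to 650 against 280 to 504, and the fibril-associated band is 16.5% to 20.8% of each knockout bar against 8.45% to 9.96% of each control bar.

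To ask which collagens changed, limma was run on log2(value + 1) for the 14637 genes that reached 1 in 2 or more libraries, and calls were made where the adjusted p over all of them (Benjamini-Hochberg) was below 0.05. Fold changes are on that scale, which understates the change of genes with low values. Of the 44 collagens, 34 were tested. In the Pkd1 knockouts 8 collagens rose, where 5.11% of all tested genes rose, and 5 fell, where 5.48% of all genes fell. The 8 were Col12a1, Col8a1, Col11a1, Col7a1, Col6a3, Col5a2, Col1a2 and Col5a1, and the 5 were Col6a5, Col27a1, Col25a1, Col26a1 and Col23a1. Of those 5, Col6a5, Col25a1 and Col23a1 passed the filter only through the 2 Pkd1 controls, the group where they were high, so the count of falls is partly set by the filter. In the Pkd2 knockouts 7 collagens rose, against 9.54% of all genes, and 1 fell, against 8.13%. Those 7 were Col12a1, Col11a1, Col8a1, Col5a2, Col3a1, Col8a2 and Col16a1, and Col27a1 was the member that fell. Col12a1, Col11a1, Col8a1 and Col5a2 rose in both models, a class that held 3.56% of all genes, and Col27a1 fell in both, where 3.04% of all genes did. Counted without a test, 13 of the 34 collagens had all knockout libraries above all controls in the Pkd1 model (29.1% of all genes did) and 8 had them below (29.2%), and in the Pkd2 model 20 lay above (31.9%) and 8 below (30.9%). On recovered reads, edgeR called 7 higher and 5 lower for Pkd1 (4.93% and 5.55% of all genes) and 6 and 2 for Pkd2 (9.33% and 6.95%), and DESeq2 called 10 and 5 for Pkd1 (6.94% and 8.11%) and 10 and 2 for Pkd2 (11.2% and 9.50%). The median log2 fold change of the 34 was 0.14 in the Pkd1 model and 0.45 in the Pkd2 model, and that of all 14637 genes was within 0.01 of 0 in each. In whole tissue, more or fewer cells of a type and more or less RNA per cell cannot be told apart.

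**Figure D2:**
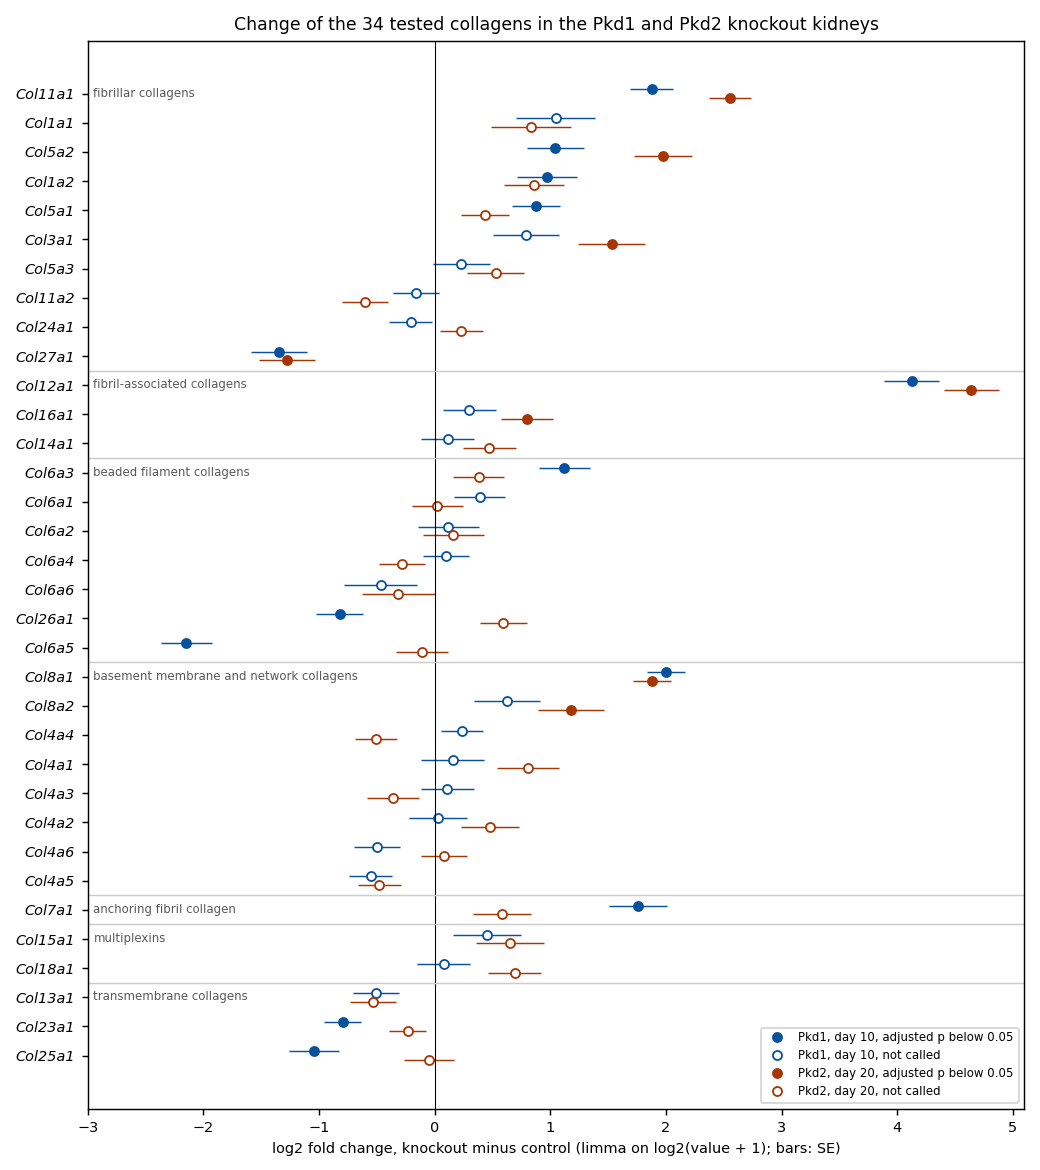
Points give the log2 fold change (x axis, knockout minus control on log2(value + 1), bars are the standard error of the limma fit) of each of the 34 tested collagens (y axis, grouped by class) in the Pkd1 model (blue) and the Pkd2 model (brown); filled points were called. Col12a1 lies farthest to the right in both models, at 4.13 and 4.64, and Col6a5 farthest to the left, at -2.15 in the Pkd1 model.

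Col12a1 (chr9:79598991-79718831, minus strand, GRCm38), the chain of the fibril-associated type XII collagen, gave 89.0 and 70.9 in the Pkd1 controls against 1381 and 1426 in the knockouts. It gave 27.4 and 29.9 in the Pkd2 controls against 602 and 905 in the knockouts. Both knockout groups lay far above their controls, with no overlap. The log2 fold change was 4.13 ± 0.24 (SE; limma adjusted p = 0.000255) for Pkd1 and 4.64 ± 0.24 (adjusted p = 7.72e-05) for Pkd2. Its relative Col14a1, type XIV collagen of the same fibril-associated class, gave 160, 151, 208 and 136 in the Pkd1 libraries (controls, then knockouts) and 141, 157, 220 and 194 in the Pkd2 libraries, and was not called in either (adjusted p = 0.788 and 0.188). Within each library, the level per kb of Col12a1 over that of Col14a1 was 0.256 and 0.216 in the Pkd1 controls against 3.05 and 4.83 in the knockouts, and 0.0896 and 0.0876 in the Pkd2 controls against 1.26 and 2.14 in the knockouts.

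Col11a1 (chr3:114030540-114220718, plus strand), a chain of the minor fibrillar type XI collagen that helps to nucleate fibrils, gave 6.33 and 4.96 in the Pkd1 controls against 21.1 and 25.6 in the knockouts. It gave 1.2 and 1.10 in the Pkd2 controls against 11 and 12.3 in the knockouts. The knockout libraries lay above the controls in both models, and the Pkd2 controls were the lowest of the 4 groups. Its log2 fold changes were 1.88 ± 0.18 (limma adjusted p = 0.00142) and 2.55 ± 0.18 (adjusted p = 0.000322). Col11a2, another chain of type XI collagen, stood between 0.185 and 1.51 in the 8 libraries and was not called, at -0.16 and -0.60 (adjusted p = 0.655 and 0.0678). In the Pkd2 knockouts Col11a2 was called lower in 4 of the 17 alternatives, at -1.52 with a pseudocount of 0.1 (adjusted p = 0.0353), -0.68 with quantile scaling (0.0460), -1.85 with edgeR (0.0385) and -1.83 with DESeq2 (0.0225). The authors' deposited table lists Col11a2 at 1.83, control minus knockout (adjusted p = 0.00424). Against Col5a1, a chain of the related type V collagen, Col11a1 per kb was 0.102 and 0.113 in the Pkd1 controls against 0.207 and 0.278 in the knockouts, and 0.0294 and 0.0212 against 0.184 and 0.187 in the Pkd2 model.

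Col8a1 (chr16:57624258-57754737, minus strand), a short-chain network collagen of vessel walls and of the membrane behind the cornea, gave 2.45 and 2.73 in the Pkd1 controls against 14.0 and 12.8 in the knockouts. It gave 6.78 and 5.89 in the Pkd2 controls against 24.2 and 27.8 in the knockouts. Every knockout library lay above every control library, whatever the model. Its log2 fold changes were 2.00 ± 0.17 (limma adjusted p = 0.000741) and 1.88 ± 0.17 (adjusted p = 0.000565). Its partner chain Col8a2 gave 3.39 and 4.07 in the Pkd1 controls against 9.19 and 4.21 in the knockouts, and 0.884 and 0.750 in the Pkd2 controls against 3.22 and 3.01. Col8a2 rose in the Pkd2 knockouts (1.18 ± 0.28, adjusted p = 0.0232) and was not called in the Pkd1 knockouts (0.63 ± 0.28, adjusted p = 0.193), where the pair of knockout libraries differed from each other and the value passed without Pkd1 knockout replicate 2 (1.11, adjusted p = 0.0278). The Col8a2 call was lost without either Pkd2 control or without Pkd2 knockout replicate 2 (adjusted p from 0.0853 to 0.138).

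**Figure D3:**
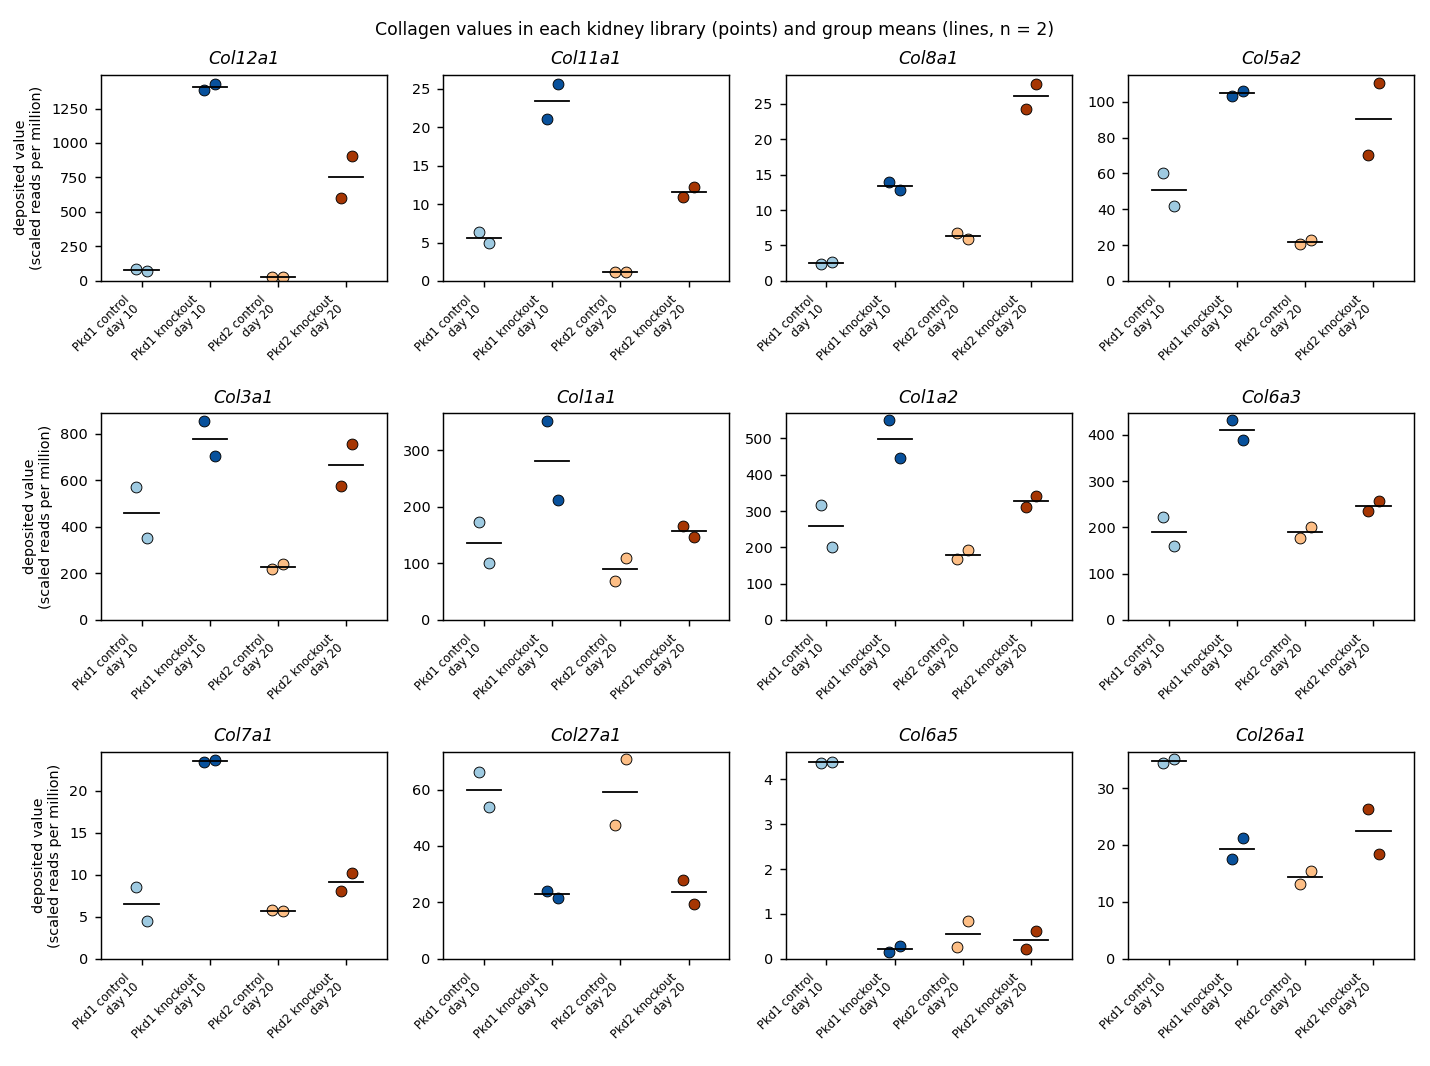
Each panel shows the deposited value (y axis from 0, CPM divided by a scaling factor) of a collagen in each kidney library (points) with the group mean (line, n = 2) for the 4 groups on the x axis. Col12a1, Col11a1 and Col8a1 lie higher in all knockout libraries than in their controls, Col27a1 lies lower, and Col6a5 is near 4.4 only in the Pkd1 controls.

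Promoter windows of called members are shown so that they can be read beside these values. They come from RefSeq on GRCm38.p6 and span 300 bases around a gene's start. Of the 44 collagens, 35 had a window, and Col12a1 and Col5a2, which rose in both models, are among those without one. Capitals mark matches, on either strand, to the TATA box letters TATAAA, to the CCAAT box, to the GC box letters GGGCGG, to the AP-1 letters TGANTCA or to the TEAD letters GGAATG, and in the windows printed no match overlaps another. The windows of Col11a1 (chr3:114030290-114030589, plus strand), Col8a1 (chr16:57754688-57754987, minus strand), Col3a1 (chr1:45311288-45311587, plus strand), Col27a1 (chr4:63215162-63215461, plus strand, with a RefSeq start 1408 bases from that of the other annotation) and Col6a5 (chr9:105960594-105960893, minus strand) read 5′ to 3′ as follows.
Col11a1: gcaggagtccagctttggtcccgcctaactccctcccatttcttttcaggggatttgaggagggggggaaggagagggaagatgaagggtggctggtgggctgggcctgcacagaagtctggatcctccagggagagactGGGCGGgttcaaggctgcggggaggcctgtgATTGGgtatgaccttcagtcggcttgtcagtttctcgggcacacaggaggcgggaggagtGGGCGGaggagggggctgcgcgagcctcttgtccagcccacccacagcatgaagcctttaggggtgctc
Col8a1: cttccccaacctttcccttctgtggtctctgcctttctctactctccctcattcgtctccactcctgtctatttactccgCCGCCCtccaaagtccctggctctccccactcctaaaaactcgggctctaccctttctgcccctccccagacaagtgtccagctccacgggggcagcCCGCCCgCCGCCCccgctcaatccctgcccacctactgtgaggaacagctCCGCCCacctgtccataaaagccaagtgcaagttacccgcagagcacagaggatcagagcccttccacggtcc
Col3a1: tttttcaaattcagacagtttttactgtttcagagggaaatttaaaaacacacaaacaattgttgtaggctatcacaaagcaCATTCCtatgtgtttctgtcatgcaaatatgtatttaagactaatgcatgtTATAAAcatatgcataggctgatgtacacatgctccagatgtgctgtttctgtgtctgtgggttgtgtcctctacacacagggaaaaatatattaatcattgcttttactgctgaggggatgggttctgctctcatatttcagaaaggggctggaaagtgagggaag
Col27a1: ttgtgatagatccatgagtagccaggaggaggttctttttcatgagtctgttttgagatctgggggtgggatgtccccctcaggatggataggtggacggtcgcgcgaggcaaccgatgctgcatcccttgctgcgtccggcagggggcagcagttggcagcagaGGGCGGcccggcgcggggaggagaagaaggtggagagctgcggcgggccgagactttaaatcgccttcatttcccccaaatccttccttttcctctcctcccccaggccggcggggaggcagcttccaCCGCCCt
Col6a5: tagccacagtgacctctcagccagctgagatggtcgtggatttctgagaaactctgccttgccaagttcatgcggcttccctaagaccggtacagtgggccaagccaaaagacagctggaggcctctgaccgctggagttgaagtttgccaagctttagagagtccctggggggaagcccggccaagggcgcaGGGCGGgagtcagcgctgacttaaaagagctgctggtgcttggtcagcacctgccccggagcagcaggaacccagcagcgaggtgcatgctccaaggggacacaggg
The GC box letters were in all of these except the Col3a1 window, which held the TATA and TEAD letters instead. Over the family, 22 of 35 windows (62.9%) held GGGCGG, against 35.7% of the 32851 windows of the whole promoter set. The other strings were found in 14.3% (TATA box), 34.3% (CCAAT box), 2.86% (AP-1) and 8.57% (TEAD) of collagen windows, against 13.6%, 37.4%, 7.81% and 14.7% of all windows. The 35 windows belong to 35 different collagens. The 32851 windows outnumber the 28183 genes of the kidney table, so some genes may hold several. Shares of collagen windows and of all windows therefore do not come from matched sets, and their differences were not tested. A match is a string of letters and was not tested as a binding site.

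Among the fibrillar collagens, 4 of 10 tested members rose and 1 fell in the Pkd1 knockouts (5.11% and 5.48% of all genes), and 3 rose and 1 fell in the Pkd2 knockouts (9.54% and 8.13%). Col5a2 (chr1:45374321-45503282), a chain of the type V collagen that limits fibril width, gave 60.1 and 42.0 against 103 and 106 in the Pkd1 model and 20.5 and 23.0 against 70.3 and 111 in the Pkd2 model, controls first. It rose by 1.05 ± 0.25 (limma adjusted p = 0.0320) and 1.98 ± 0.25 (adjusted p = 0.00200). Its partner Col5a1 gave 41.3 and 29.2 against 68.1 and 61.6 in the Pkd1 model and 27.1 and 34.6 against 39.9 and 43.7 in the Pkd2 model, and rose in the Pkd1 knockouts (0.88 ± 0.21, adjusted p = 0.0315) but was not called in the Pkd2 knockouts (0.43 ± 0.21, adjusted p = 0.182). The ratio of Col5a2 to Col5a1 per kb lay at 0.669 and 0.588 in the Pkd2 controls and at 1.56 and 2.24 in the Pkd2 knockouts, while the Pkd1 groups were at 1.29 and 1.27 against 1.34 and 1.53. The Pkd1 calls of Col5a1 and Col5a2 were each lost when any Pkd1 library or either Pkd2 control was left out (adjusted p from 0.0512 to 0.162). Opposite-strand genes cover 2.50% of the exon bases of Col5a1, and the sources used here give no strand setting for the counting.

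Type I collagen, the main collagen of scar and tendon, was called by limma in the Pkd1 model for 1 of its 2 chains. Col1a1, a chain of type I collagen, gave 173 and 100 in the Pkd1 controls against 351 and 212 in the knockouts, and 69.2 and 110 in the Pkd2 controls against 166 and 147. Col1a2, its partner chain, gave 317 and 201 against 550 and 447, and 167 and 192 against 311 and 342. For both genes the knockout libraries lay above the controls of their model without overlap (29.1% of all genes did for Pkd1 and 31.9% for Pkd2). Col1a1 was not called (1.05 ± 0.34, limma adjusted p = 0.0890, and 0.83 ± 0.34, adjusted p = 0.129). Col1a2 was called in the Pkd1 model at the edge of the threshold (0.97 ± 0.26, adjusted p = 0.0467) and not in the Pkd2 model (0.86 ± 0.26, adjusted p = 0.0510). That Pkd1 call was kept in 4 of 17 alternative settings and was lost without any Pkd1 library or either Pkd2 control (adjusted p from 0.0559 to 0.212). The Pkd2 value passed without either Pkd1 control (adjusted p = 0.0414 and 0.0422). DESeq2 on recovered reads called Col1a1 in the Pkd1 model (1.04, adjusted p = 0.0115) and Col1a2 in the Pkd2 model (0.86, adjusted p = 0.00639). The ratio of Col1a1 to Col1a2 per kb ran from 0.783 to 1.21 over the 8 libraries, with knockouts and controls mixed in that range.

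Col3a1 (chr1:45311538-45349706), the chain of type III collagen and a tail-to-tail neighbour of Col5a2 at 24614 bases, gave 571 and 353 in the Pkd1 controls against 857 and 704 in the knockouts. In the Pkd2 model it gave 217 and 239 against 577 and 755. The groups did not overlap in either model. Col3a1 rose in the Pkd2 knockouts (1.53 ± 0.29, limma adjusted p = 0.00930) and was not called in the Pkd1 knockouts (0.79 ± 0.29, adjusted p = 0.118), where DESeq2 on recovered reads called it (0.76, adjusted p = 0.0364). The Pkd2 call was lost without either Pkd2 control (adjusted p = 0.0789 and 0.0691).

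Col27a1 (chr4:63214004-63334991, plus strand), a fibrillar collagen known mainly from cartilage, went the other way. It gave 66.3 and 53.8 in the Pkd1 controls against 24.1 and 21.7 in the knockouts, and 47.5 and 70.7 in the Pkd2 controls against 27.9 and 19.5. The controls of both ages lay in the same range and all 4 knockout libraries lay below it. It fell by 1.35 ± 0.24 (limma adjusted p = 0.0111) and by 1.28 ± 0.24 (adjusted p = 0.00965) on the log2 scale. The Pkd1 call was lost without either Pkd1 control or Pkd1 knockout replicate 2 (adjusted p from 0.0551 to 0.0974), and the Pkd2 call without Pkd2 control replicate 2 or Pkd2 knockout replicate 2 (adjusted p = 0.0891 and 0.0530). Of the 8 genes of the cartilage and bone marker list 2 were tested, and they differed in direction. Alpl, an alkaline phosphatase, made up most of the summed list and gave 53.8 and 42.6 against 8.34 and 18.2 in the Pkd1 model and 83.4 and 102 against 66.2 and 39.5 in the Pkd2 model (-1.87, limma adjusted p = 0.0132, and -0.84, adjusted p = 0.135). Sox9, a transcription factor of cartilage, was not called (0.46 and 0.85, adjusted p = 0.353 and 0.0792). The rest of the list was below the filter, so these 2 genes are no measure of cartilage or bone cells. The part of such cells in the Col27a1 result was not tested. Col5a3 and Col24a1, the other tested fibrillar genes, were not called in either model, with log2 fold changes from -0.21 to 0.53.

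The fibril-associated class had 9 members, of which 3 were tested. Col16a1, a chain found at fibrils and at cell contacts, gave 90.1 and 66.7 in the Pkd1 controls against 96.7 and 94.7 in the knockouts, and 24.6 and 36.5 in the Pkd2 controls against 49.5 and 56.4. It rose in the Pkd2 knockouts by 0.80 ± 0.23 (limma adjusted p = 0.0423) and was not called in the Pkd1 knockouts (0.30 ± 0.23, adjusted p = 0.435). The Pkd2 call was kept in 7 of 17 alternative settings, and was lost without any one of the Pkd1 knockouts, the Pkd2 controls or Pkd2 knockout replicate 2 (adjusted p from 0.0578 to 0.271).

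The type IV collagens, which build basement membranes, were not called by limma in either model. Col4a1 gave 647 and 484 in the Pkd1 controls against 530 and 735 in the knockouts, and 292 and 360 in the Pkd2 controls against 523 and 617. Col4a2 gave 402 and 305 against 305 and 416, and 211 and 273 against 333 and 335. Both chains, which pair in the basement membranes of most tissues, overlapped between the Pkd1 groups. They were higher without overlap in the Pkd2 knockouts, where 31.9% of all genes were. Their log2 fold changes were 0.16 and 0.03 for Pkd1 and 0.81 ± 0.27 (limma adjusted p = 0.0727) and 0.48 ± 0.25 (adjusted p = 0.222) for Pkd2. Under DESeq2 on recovered reads, Col4a1 passed in the Pkd2 model (0.81, adjusted p = 0.0112). The genes lie head to head on chromosome 8 (Col4a1 at chr8:11198423-11312826 on the minus strand, Col4a2 at chr8:11312805-11449287 on the plus strand) and their annotated starts share 22 bases. The RefSeq window of Col4a1 (chr8:11312777-11313076, minus strand) is printed because it holds the starts of this pair, with 1 CCAAT and 1 GC box string.
Col4a1: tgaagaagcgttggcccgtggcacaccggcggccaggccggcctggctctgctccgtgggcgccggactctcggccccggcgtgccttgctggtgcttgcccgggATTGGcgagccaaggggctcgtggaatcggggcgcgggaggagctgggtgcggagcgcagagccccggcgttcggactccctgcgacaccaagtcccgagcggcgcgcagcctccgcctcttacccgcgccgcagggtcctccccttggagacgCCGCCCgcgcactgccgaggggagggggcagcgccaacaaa

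Col4a3, Col4a4 and Col4a5 form the mature network of the glomerular basement membrane and of some tubules. Col4a3 gave 125 and 100 against 98.5 and 148 in the Pkd1 model and 157 and 148 against 125 and 113 in the Pkd2 model. Col4a4, which starts 71 bases from Col4a3 in the opposite direction on chromosome 1, gave 86.9 and 69.9 against 87.4 and 97.1, and 103 and 121 against 78.7 and 77.7. Col4a5, on chromosome X, gave 143 and 124 against 84.7 and 97.0, and 165 and 133 against 107 and 106. All 3 were lower without overlap in the Pkd2 knockouts, where 30.9% of all genes were. None was called, at log2 fold changes of -0.36, -0.51 and -0.48 (limma adjusted p = 0.308, 0.0867 and 0.112). In the Pkd1 model they were at 0.11, 0.24 and -0.55 (adjusted p = 0.792, 0.440 and 0.0965). Col4a6, head to head with Col4a5 at 1308 bases, gave 11.7 and 10.3 against 6.56 and 8.49, and 7.35 and 5.63 against 7.43 and 6.36, with log2 fold changes of -0.50 and 0.08 (adjusted p = 0.143 and 0.809). Opposite-strand genes cover 5.65% of the exon bases of Col4a3.

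The balance between the general and the mature type IV network can be read as a ratio within each library. Col4a1 and Col4a2 over Col4a3, Col4a4 and Col4a5, per kb, came to 3.51 and 3.16 in the Pkd1 controls against 3.81 and 4.20 in the knockouts. The ratio was 1.42 and 1.94 in the Pkd2 controls against 3.36 and 3.88 in the knockouts. The day 20 controls were the lowest group, and the day 20 knockouts lay within the range of the day 10 libraries. Ratios have no test of their own here, since 2 libraries against 2 cannot give an exact permutation p below 0.333. Of 8 markers of podocytes, the cells that make the mature glomerular network, 6 fell with Pkd1 loss (5.48% of all genes) and 3 with Pkd2 loss (8.13%). The 8 markers summed to 412 to 431 and 181 to 189 in the Pkd1 and Pkd2 controls against 217 to 227 and 147 to 149 in the knockouts. Their part in these values was not tested.

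**Figure D4:**
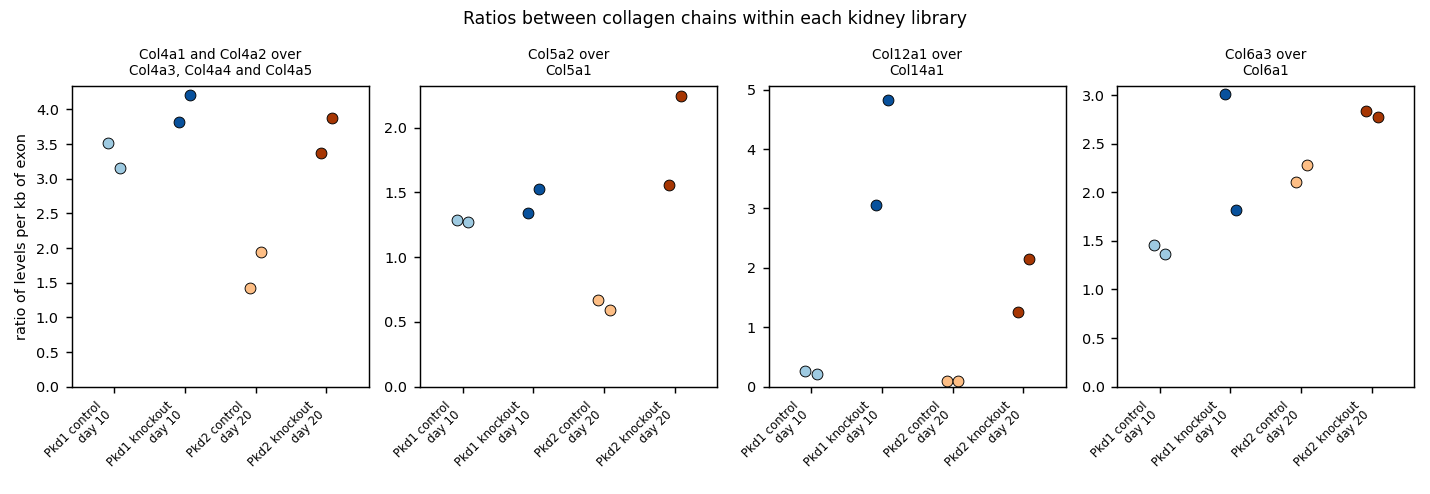
Points give ratios of levels per kb of exon (y axes from 0) between named collagen chains within each of the 8 kidney libraries, by group on the x axis. The type IV ratio is lowest in the Pkd2 controls, at 1.42 and 1.94, Col5a2 over Col5a1 is above 1.5 in the Pkd2 knockouts and below 0.7 in their controls, and Col12a1 over Col14a1 exceeds 1 in knockout libraries alone.

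The beaded filament class was split. Col6a3, the large chain of type VI collagen, gave 223 and 159 in the Pkd1 controls against 433 and 389 in the knockouts, and 177 and 201 in the Pkd2 controls against 235 and 258. It rose in the Pkd1 knockouts (1.12 ± 0.22, limma adjusted p = 0.0163) and was not called in the Pkd2 knockouts (0.38 ± 0.22, adjusted p = 0.265). Its partner chains Col6a1 and Col6a2 were not called, with log2 fold changes from 0.02 to 0.39 over both models, Col6a1 at 30.4 to 78.3 and Col6a2 at 39.9 to 117 over the libraries. The Col6a3 call was lost without Pkd1 control replicate 2 or either Pkd1 knockout (adjusted p from 0.0540 to 0.102).

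Col6a5 (chr9:105856078-105960643, minus strand), an alternative to the large chain, had the strongest fall of the family. It gave 4.36 and 4.39 in the Pkd1 controls, from 532 and 201 recovered reads, and 0.156 and 0.275 in the Pkd1 knockouts, from 9 and 13 reads. In the Pkd2 model it gave 0.260 and 0.838 in the controls and 0.224 and 0.624 in the knockouts. The day 10 controls stood apart from the 6 other libraries, which overlapped. It fell by 2.15 ± 0.22 on the log2(value + 1) scale in the Pkd1 knockouts (limma adjusted p = 0.00159) and was at -0.11 ± 0.22 in the Pkd2 knockouts (adjusted p = 0.769). It reached 1 in the 2 Pkd1 controls alone and so entered the test through the group where it was high; with no filter the Pkd1 value kept an adjusted p of 0.0141. At these low values the pseudocount sets the size: the Pkd1 value ran from -4.37 to -2.06 over the alternatives. Its neighbours on the same strand of chromosome 9, Col6a6 and Col6a4, lie 27917 and 28810 bases away, were below 2 in every library and were not called.

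Col26a1 gave 34.3 and 35.2 in the Pkd1 controls against 17.5 and 21.1 in the knockouts, and 13.2 and 15.4 in the Pkd2 controls against 26.3 and 18.4. It fell by 0.82 ± 0.20 in the Pkd1 knockouts (limma adjusted p = 0.0364) and was at 0.59 ± 0.20 in the Pkd2 knockouts (adjusted p = 0.0759), so the models lay on opposite sides of 0. The Pkd2 value passed without Pkd2 knockout replicate 2 (0.84, adjusted p = 0.0411). The Pkd1 call was lost without any Pkd1 library or either Pkd2 control (adjusted p from 0.0666 to 0.184).

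Col7a1 (chr9:108953586-108984875, plus strand), the anchoring fibril collagen that ties epithelial basement membrane to the tissue beneath, gave 8.59 and 4.50 in the Pkd1 controls against 23.5 and 23.6 in the knockouts. In the Pkd2 model it gave 5.80 and 5.63 against 8.04 and 10.2. Knockouts lay above controls in both models, with the wider gap in the Pkd1 model. It rose by 1.76 ± 0.25 in the Pkd1 knockouts (limma adjusted p = 0.00497) and was not called in the Pkd2 knockouts (0.58 ± 0.25, adjusted p = 0.147). The multiplexins Col15a1 and Col18a1, basement membrane collagens of vessels and epithelium whose ends can be cleaved into endostatin-like fragments, were not called. Col15a1 ran from 105 to 253 and Col18a1 from 204 to 407 over the libraries, and in the Pkd2 model their log2 fold changes were 0.65 ± 0.29 (adjusted p = 0.159) and 0.69 ± 0.23 (adjusted p = 0.0678). Col18a1 passed there with DESeq2 (0.69, adjusted p = 0.0184) and without Pkd2 knockout replicate 1 (0.81, adjusted p = 0.0407).

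Of the 4 transmembrane collagens 3 were tested, and 2 of them fell in the Pkd1 knockouts, where 5.48% of all genes fell. None was called in the Pkd2 knockouts, where 9.54% of all genes rose and 8.13% fell. Col23a1 gave 2.65 and 2.08 in the Pkd1 controls against 0.955 and 0.910 in the knockouts, and 0.728 and 0.816 in the Pkd2 controls against 0.505 and 0.509. Col25a1, a neuronal collagen, gave 3.03 and 1.92 against 0.486 and 0.868, and 0.494 and 0.176 against 0.336 and 0.231. For both genes the day 10 controls were the highest group and every other library was below 1. They fell by 0.79 ± 0.16 (limma adjusted p = 0.0181) and by 1.04 ± 0.22 (adjusted p = 0.0206). Both reached 1 in the 2 Pkd1 controls alone and so entered the test through the group where they were high. With no filter the adjusted p was 0.0338 for Col23a1 and 0.0554 for Col25a1. The Col23a1 call was lost without any Pkd1 library (adjusted p from 0.0589 to 0.136), and the Col25a1 call without either Pkd1 control or Pkd1 knockout replicate 1 (adjusted p from 0.0509 to 0.151) and with a pseudocount of 0.1 (adjusted p = 0.0557). Col13a1, a collagen of cell contacts, was not called (-0.51 and -0.53, adjusted p = 0.139 and 0.0971).

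The 10 collagens below the filter were Col2a1, Col9a1, Col9a2, Col9a3, Col10a1, Col17a1, Col19a1, Col20a1, Col22a1 and Col28a1, each at 1.43 or less in every library. Col10a1 (chr10:34389981-34397085), a network collagen of growth-plate cartilage, had 1 and 0 recovered reads in the Pkd1 controls against 11 and 6 in the knockouts, and 0 and 0 in the Pkd2 controls against 16 and 44. Set against the floor of 3 reads in each control library, the Pkd2 knockout mean of 0.733 was at least 10.2-fold higher. The Pkd2 knockout libraries themselves stood at 0.448 and 1.02, a spread that this bound on the mean leaves out. Without the filter, where limma called 6.76% of 26812 genes in the Pkd2 contrast, Col10a1 (0.77 ± 0.14, adjusted p = 0.0290) and Col28a1 (0.64 ± 0.12, adjusted p = 0.0342) were called there, and no member of the 10 was called in the Pkd1 contrast, where 2.95% of genes were. Col28a1 gave 0.104 and 0.265 in the Pkd2 controls against 0.841 and 0.832 in the knockouts. The cartilage genes Col2a1 and Col9a1 had at most 33 and 11 recovered reads in any library.

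In the authors' deposited table, 6 of the 44 collagens were higher in the Pkd1 knockouts (3.59% of all listed genes) and 5 were lower (4.35%), and 9 were higher in the Pkd2 knockouts (5.68%) and 2 lower (4.58%), at their adjusted p below 0.05. The authors' deposited table gives control minus knockout, and lists Col12a1 at -4.13 and -4.72, and Col10a1 at -4.33 and -8.38 (adjusted p = 0.000300 and 5.41e-11). It also lists Col17a1, below the filter here, at -2.57 for Pkd2 (authors' deposited table, adjusted p = 7.25e-05), where the reads were 2 and 10 in the controls and 8 and 62 in the knockouts, so that value rests on Pkd2 knockout replicate 2.

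Whether the models differ was tested in the same fit, as the Pkd1 effect minus the Pkd2 effect, a contrast that uses the same libraries as the knockout contrasts. No collagen was called by limma, and 0.00683% of all genes were (1 gene, which was lower in this contrast), while 9 of the 34 collagens and 1207 of 14637 genes had an unadjusted p below 0.05. The largest differences were those of Col6a5 (-2.04 ± 0.32, adjusted p = 0.0958) and Col26a1 (-1.42 ± 0.29, adjusted p = 0.157), followed by Col7a1 (1.17 ± 0.36, adjusted p = 0.35) and Col25a1 (-0.99 ± 0.31, adjusted p = 0.364). Col6a5 and Col25a1 reached 1 in the 2 Pkd1 controls alone, so they entered this contrast through the group where they were high. DESeq2 on recovered reads called Col6a5 (-4.00, adjusted p = 0.00153) and Col26a1 (-1.49, adjusted p = 0.00575), where it called 0.779% of all genes lower and 0.478% higher. The edgeR test called neither, and the limma value of Col6a5 without Pkd2 knockout replicate 1 was -2.24. Col12a1 differed by -0.52 ± 0.34 (adjusted p = 0.842). The models also differ in age, Cre and floxed gene, which cannot be told apart.

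Most collagens stood lower in the day 20 controls than in the day 10 controls. In that contrast 11 of 34 collagens were lower, against 7.26% of all tested genes, and 1 was higher, against 5.04%, and the median over the 34 was -0.56. Without overlap between the control groups, 20 collagens were lower (31.2% of all genes were) and 3 higher (31.1%). The contrast shares its control libraries with the knockout contrasts, and age and floxed gene cannot be told apart in it. The lower members were Col6a5 (-1.82 ± 0.22, limma adjusted p = 0.00199), Col11a1 (-1.62 ± 0.18, adjusted p = 0.00147), Col12a1 (-1.44 ± 0.24, adjusted p = 0.00673), Col8a2 (-1.38), Col25a1 (-1.37), Col16a1 (-1.34), Col26a1 (-1.23), Col5a2 (-1.17), Col6a2 (-0.96), Col24a1 (-0.94) and Col23a1 (-0.92). Col6a2, a type VI chain, gave 111 and 72.4 at day 10 against 39.9 and 51.6 at day 20, and Col24a1, a minor fibrillar collagen, gave 2.21 and 1.53 against 0.416 and 0.551. Col8a1 was the member that was higher (1.03 ± 0.17, adjusted p = 0.00632), so the 2 chains of type VIII collagen lay on opposite sides, and their ratio per kb, Col8a1 over Col8a2, was 0.415 and 0.385 at day 10 and 4.40 and 4.50 at day 20. The 3 collagens of the mature type IV network stood at 0.45, 0.51 and 0.15 (Col4a3, Col4a4 and Col4a5, not called). Without Pkd1 control replicate 1 2 collagens were called lower (1.75% of all genes), without Pkd2 control replicate 1 there were 3 (2.02%), without Pkd2 control replicate 2 there were 4 (2.33%), and with a sex covariate 4 (3.50%), so calls over all genes dropped at the same settings. Col6a5, Col25a1 and Col23a1 passed the filter only through the day 10 controls, and Col24a1 only through the day 10 libraries. Of 12 fibroblast and myofibroblast markers 8 were lower in this contrast, and their part in it was not tested.

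The genes that fold, export and cross-link collagen were read from lists. Over all tested genes, 5.11% rose and 5.48% fell in the Pkd1 knockouts, and 9.54% rose and 8.13% fell in the Pkd2 knockouts. Of 18 tested genes for modification and folding, none rose and 1 fell in the Pkd1 knockouts, and 2 rose and 1 fell in the Pkd2 knockouts. P3h2, a prolyl hydroxylase of basement membrane collagen, fell in both (-0.88 ± 0.17, limma adjusted p = 0.0164, and -1.31 ± 0.17, adjusted p = 0.00248), with 33.4 and 32.5 against 16.7 and 18.3 in the Pkd1 model and 55.1 and 58.6 against 25.5 and 19.4 in the Pkd2 model. Fkbp10 and Fkbp14, folding enzymes of the endoplasmic reticulum, rose in the Pkd2 knockouts (0.78 and 0.63). Of 13 genes for export and cleavage, 1 rose and 1 fell in the Pkd1 knockouts and 4 rose and 1 fell in the Pkd2 knockouts. Adamts2, the main procollagen N-proteinase, rose in both (1.47 and 1.23), and the related Adamts14 fell in both (-0.85 and -0.86).

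Of 7 cross-linking genes, 2 rose and 1 fell in the Pkd1 knockouts and 2 rose in the Pkd2 knockouts. The shares of all genes, for this and the next lists, were 5.11% up and 5.48% down for Pkd1, and 9.54% and 8.13% for Pkd2. Lox, the lysyl oxidase that starts the cross-links, gave 17.8 and 19.7 against 68.1 and 92.9 in the Pkd1 model and 21.9 and 16.4 against 68.4 and 93.6 in the Pkd2 model, and rose by 2.03 ± 0.23 (limma adjusted p = 0.00223) and 2.02 ± 0.23 (adjusted p = 0.00126). Loxl2 rose by 1.28 and 0.97, and Tgm2, a transglutaminase, fell in the Pkd1 knockouts (-0.94, limma adjusted p = 0.00969) and was not called in the Pkd2 knockouts (0.09, adjusted p = 0.751). Of 15 fibril-binding genes, 4 rose and 1 fell for Pkd1 and 6 rose and 1 fell for Pkd2. Postn (2.10 and 1.81), Thbs1 (2.29 and 1.53) and Fn1 (1.36 and 1.64), matrix proteins that bind collagen, rose in both. Of 11 receptors 2 and 5 rose, with Cd44 at 1.56 and 2.46 and Lair1, a collagen receptor of immune cells, at 0.80 and 1.48. Of 10 degradation genes 1 rose for Pkd1, and 4 rose and 1 fell for Pkd2. Timp1, an inhibitor of matrix proteases, rose by 1.76 and 3.65, the collagen-cleaving proteases Mmp2 and Mmp14 rose in the Pkd2 knockouts (0.95 and 1.17), and Mmp9 fell there (-1.22).

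Markers of several cell types changed in the same libraries, where 5.11% of all genes rose and 5.48% fell for Pkd1. For Pkd2, 9.54% of all genes rose and 8.13% fell. Of 12 fibroblast and myofibroblast markers, 4 rose with Pkd1 loss and 5 with Pkd2 loss, and their summed value was 459 to 538 and 284 to 286 in the Pkd1 and Pkd2 controls against 868 to 906 and 498 to 507 in the knockouts. The contractile genes Acta2 (2.08 and 2.4) and Cnn1 (2.97 and 0.98) and the surface marker Thy1 (1.17 and 2.57) rose in both. Of 11 macrophage markers 10 rose for Pkd1 and 11 for Pkd2, with sums of 47.6 to 52.8 and 52.1 to 53.9 against 142 to 151 and 245 to 289. Of 8 endothelial markers 3 and 1 fell, of 8 proximal tubule markers 7 fell in each model, and of 8 distal tubule and thick ascending limb markers 6 and 7 fell. Of 9 collecting duct markers 3 rose in each model, and 2 and 1 fell. Of 6 fat markers 1 rose for Pkd1 and 2 fell for Pkd2, and none of the 2 tested adrenal or 2 tested skeletal muscle markers was called in either knockout contrast. The part of these cell types in the collagen results was not tested.

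In the mIMCD-3 cells, the table holds only genes that the authors' comparison called, so it gives no fresh test, and 4 collagens are in it. All 4 were lower with the Hoxb3os gapmer, as were 55.6% of the 2016 genes listed. Col4a4 gave 2396 and 2435 with the control gapmer and 2043, 2015 and 1975 with the Hoxb3os gapmer, a log2 difference of -0.26. Col16a1 gave 1013 and 961 against 701, 816 and 811 (-0.35). Col4a3 gave 1562 and 1590 against 1442, 1384 and 1269 (-0.21), and Col4a6 gave 2220 and 2256 against 2040, 1980 and 2024 (-0.15). The means of the 4, taken on log2 values, were 9.97% to 21.5% lower with the Hoxb3os gapmer. The authors' deposited table lists log2 fold changes of -0.24 (adjusted p = 6.21e-05), -0.29 (adjusted p = 0.00138), -0.18 (adjusted p = 0.0263) and -0.14 (adjusted p = 0.0496) for the same genes in that order. Of the pathway lists, the authors' deposited table has P4hb (-0.13), Fkbp14 (-0.21), Mia2 (-0.22), Tgm2 (-0.14) and Timp2 (-0.18) lower and Loxl4 (0.14), Thbs1 (0.43) and Ctsl (0.14) higher. The level of Hoxb3os in these cells was not analysed here. Of the collagens called in the kidneys, Col16a1 is the member also listed in the cells.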

How the data were processed

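Kidney and cell line RNA-seq was read from the deposited tables. Per the submitters' processing notes, the kidney data involved RSEM 1.2.22, edgeR, STAR 2.4.2a, FastQC 0.11.2 and Cufflinks 2.2.1, and the cell data Trimmomatic 0.32, STAR 2.4.2a, SAMtools 1.0 and DESeq2 1.12.3, on mm10. The sources used here give no role of each tool, strand setting or annotation. The authors' kidney values are a normalised signal, CPM, each library further divided by its own scaling factor, and the deposited cell values are a signal of counts divided by size factors. The authors also deposited log2 fold changes, p-values and likelihood ratio scores of their own comparisons. That low kidney values are multiples of 1 read was read from the values: 92.3% to 95.0% came out whole within 0.02 of a read, least in Pkd1 control replicate 1, whose recovered reads are the least certain.

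The 14637 genes that reached 1 in 2 or more libraries were fitted with limma 3.58.1 (R 4.3.3) on log2(value + 1), in 1 fit of 4 groups and 8 libraries, with a trend and Benjamini-Hochberg adjustment at 0.05. The fit was tested on simulated data, with changes placed only in the Pkd1 knockouts and only in genes away from low values. That test does not cover low-value members or the other contrasts. Groups follow the labelled genotype and treatment. Levels per kb use GENCODE exon lengths on GRCm38. Depth was 30658367 to 94429117 reads, and floors of 3 reads cover counting error only. The alternatives were a pseudocount of 0.1, no filter, quantile scaling, edgeR 4.0.16 and DESeq2 1.42.0 on recovered reads, each model alone, a replicate block, a sex covariate and leaving out each library. Replicate numbers did not pair the libraries.

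Values in every library are given for members called in any of 4 contrasts, for type I, III and IV chains and for members in the cell table. Of each pathway list up to 4 called genes with the smallest adjusted p per knockout contrast are named, and of each cell type list up to 2. Members and lists were chosen with earlier results of these data known. The cell table holds only genes with the authors' adjusted p below 0.05, so no test was run on it.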

Additional observations from a re-analysis of the deposited data

How the results depend on the processing

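Calls of Col12a1, Col11a1 and Col8a1 in both models, of Col5a2 in the Pkd2 model and of Col6a5 and Col7a1 in the Pkd1 model held in all 17 alternatives run. Without the filter 5 collagens were higher (1.47% of all genes) and 3 lower (1.47%) in the Pkd1 knockouts. In the Pkd2 knockouts 2, Col27a1 and Col11a2, were lower with a pseudocount of 0.1, quantile scaling, edgeR or DESeq2. Of all genes, 7.60%, 7.77%, 6.95% and 9.50% were lower at those settings, in that order. DESeq2 called 2 collagens lower in the difference between models (0.779% of all genes). With the sex covariate 4 were lower between the day 20 and day 10 controls (3.50% of all genes). With a replicate block the counts higher and lower were 7 and 4 for Pkd1, 6 and 1 for Pkd2 and 0 and 9 for the controls by age. The shares of all genes there were 3.55% and 3.59%, 7.00% and 5.38%, and 2.19% and 3.59%. Deviations from the group mean, not the values themselves, were correlated between same-numbered control and knockout libraries. Over 14637 genes this gave -0.378 in the Pkd1 model and -0.0490 in the Pkd2 model. The same numbers thus gave no pairing. With 2 libraries a group, opposite numbers have the same correlation with the sign reversed, so in the Pkd1 model opposite numbers deviated alike. A crossed replicate block, chosen after seeing the data, gave 7 and 5 for Pkd1, 8 and 1 for Pkd2, and 1 and 8 for the controls by age. Leaving out each library in turn gave 4 to 8 higher and 1 to 5 lower for Pkd1, 4 to 8 higher and 0 to 1 lower for Pkd2, 0 to 1 higher and 2 to 13 lower for the controls by age, and 0 to 1 lower for the difference. A library left alone in its group was assumed to vary like the other groups. Over all genes, calls ran from 332 to 2491 for Pkd1, 669 to 4328 for Pkd2, 412 to 2571 for the controls by age and 0 to 184 for the difference, against 1550, 2587, 1801 and 1. The causes were not tested. With 2 libraries a group, and values below 1 resting on few reads, small changes were not detectable.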
